A study of Mus musculus with 2 samples.

Results

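The windows described here are stretches of 1000 bp in the mouse liver genome that are dense in CpG and nevertheless methylated. The autosomes were cut into fixed windows of 1000 bp. A window was taken as CpG-dense when at least 40 of its CpG cytosines were listed in either library, with both strands counted. The windows were chosen by the control library: at least 10 cytosines needed 10 or more reads in both libraries, and their mean control level had to be 80% or more. Of 13736 CpG-dense windows with enough coverage, 577 met the rule, which is 4.20% (exact 95% interval over windows 3.87% to 4.55%). The other 13159 CpG-dense windows had a lower control level, and 12196 of them were under 10%.

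The DNA came from the liver of CD-1 mice, an outbred stock, at an age of 12 weeks. The fasted library was made from mice kept without food for 12 hr, and the control library from untreated mice on standard chow. The labels do not say whether a library holds DNA of 1 mouse or of several, and there is 1 library per group. Differences between them therefore have no replicate check, and fasting cannot be told apart from any other difference between these libraries. Methylation was measured by reduced representation bisulfite sequencing, in which DNA is cut by MspI and TaqI, converted with bisulfite and sequenced, so that unmethylated cytosines read as thymine. A methylation level is the percentage of reads over a cytosine that still read as cytosine, and the level of a window is the mean over its covered cytosines.

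Most CpGs of the mouse genome are methylated, and most of the genome is poor in CpG. The exceptions are CpG islands, CpG-dense stretches that mostly lie at gene starts and are mostly free of methylation. CpG islands that are methylated in adult tissues are known at the starts of genes used only in germ cells, inside genes, on the silenced copy of imprinted genes and in repeats.

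The DNA just upstream of the start of 6 protein-coding genes is printed. Of 12 starts that overlap methylated CpG-dense windows, these had 10 or more covered cytosines in the start region, 250 bp before to 50 bp after the start. They do not stand for all 12. That of Cpeb1 is printed because its start, also of a gene known from germ cells, was almost unmethylated. The Sohlh2 and Hsf5 stretches begin before their windows, and most of the Sohlh2 stretch lies outside its window. Each is the 250 bases before the annotated start, 5′ to 3′ on the strand of the gene, from RefSeq on GRCm38.p6, the build of mm10. Capitals mark every CG, the dinucleotide that is measured. The regions are chr3:55181794-55182043 (plus strand) for Sohlh2, chr5:97392331-97392580 (minus strand) for Naa11, chr3:40708621-40708870 (plus strand) for Slc25a31 and chr4:107683590-107683839 (minus strand) for Dmrtb1. Those of Hormad1, Hsf5 and Cpeb1 are chr3:95559427-95559676 (plus strand), chr11:87616914-87617163 (plus strand) and chr7:81454759-81455008 (minus strand).
Sohlh2: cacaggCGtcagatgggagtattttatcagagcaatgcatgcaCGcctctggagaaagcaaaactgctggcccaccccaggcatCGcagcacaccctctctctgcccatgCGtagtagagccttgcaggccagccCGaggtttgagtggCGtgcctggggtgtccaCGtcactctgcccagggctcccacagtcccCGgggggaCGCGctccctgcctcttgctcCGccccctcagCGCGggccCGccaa
Naa11: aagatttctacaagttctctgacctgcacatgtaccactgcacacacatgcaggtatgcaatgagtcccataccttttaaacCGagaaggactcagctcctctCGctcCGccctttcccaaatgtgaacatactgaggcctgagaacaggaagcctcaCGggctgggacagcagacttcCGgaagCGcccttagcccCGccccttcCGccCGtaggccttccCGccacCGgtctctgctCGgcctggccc
Slc25a31: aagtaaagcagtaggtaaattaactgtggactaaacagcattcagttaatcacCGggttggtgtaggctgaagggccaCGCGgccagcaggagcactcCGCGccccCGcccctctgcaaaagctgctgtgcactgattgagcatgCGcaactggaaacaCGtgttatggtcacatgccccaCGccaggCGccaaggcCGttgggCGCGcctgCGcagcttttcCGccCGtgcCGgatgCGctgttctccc
Dmrtb1: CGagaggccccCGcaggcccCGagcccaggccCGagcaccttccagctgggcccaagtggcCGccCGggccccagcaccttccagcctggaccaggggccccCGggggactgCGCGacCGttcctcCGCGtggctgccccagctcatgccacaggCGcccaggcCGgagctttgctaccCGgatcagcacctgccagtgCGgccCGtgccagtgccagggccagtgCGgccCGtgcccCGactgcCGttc
Hormad1: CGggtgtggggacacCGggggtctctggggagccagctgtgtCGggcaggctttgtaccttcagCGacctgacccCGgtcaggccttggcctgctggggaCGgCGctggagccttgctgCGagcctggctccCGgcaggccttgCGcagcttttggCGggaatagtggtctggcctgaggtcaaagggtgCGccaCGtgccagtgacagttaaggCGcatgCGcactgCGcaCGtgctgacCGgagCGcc
Hsf5: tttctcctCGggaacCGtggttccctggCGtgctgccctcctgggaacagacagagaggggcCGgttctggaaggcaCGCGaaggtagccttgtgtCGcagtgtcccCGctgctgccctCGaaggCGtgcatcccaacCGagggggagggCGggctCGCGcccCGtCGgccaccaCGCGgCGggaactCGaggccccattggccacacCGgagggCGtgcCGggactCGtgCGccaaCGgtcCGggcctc
Cpeb1: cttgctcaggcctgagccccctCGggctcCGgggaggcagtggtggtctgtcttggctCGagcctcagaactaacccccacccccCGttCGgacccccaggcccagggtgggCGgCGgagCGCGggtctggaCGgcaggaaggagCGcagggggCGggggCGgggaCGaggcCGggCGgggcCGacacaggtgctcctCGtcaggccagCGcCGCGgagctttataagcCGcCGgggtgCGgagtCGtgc

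The runs hold 12 (Naa11) to 27 (Hsf5) CpGs in the methylated set and 25 in Cpeb1. Over the covered cytosines in the printed Hsf5 stretch the mean level was 96.4% in the fasted library and 95.3% in the control library (17 cytosines). The Slc25a31 stretch stood at 89.8% in the fasted library and 92.8% in the control library (25 cytosines), and the Dmrtb1 stretch at 82.4% in both (22 cytosines). The Cpeb1 stretch stood at 0.856% in the fasted library and 1.59% in the control library (22 cytosines). Of the 6 methylated stretches, all but that of Hsf5 hold fewer CpGs than the Cpeb1 stretch.

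The fasted file held 51276705 reads over cytosines and the control file 49253627. Of the CpGs listed in the start regions of the RefSeq promoter table, 183130 of 183130 fell on a CG of the sequence. The tissue was read at the starts of marker genes, of which 7 of 12 hepatocyte starts and 2 of 7 leukocyte starts had a covered cytosine. The covered hepatocyte starts ran from 0.890% (Cebpa, 127 cytosines) to 75% (Serpina1a, 2 cytosines) in the fasted library and from 0.615% to 61.5% at the same genes in the control library. The start of Apob, an apolipoprotein made by hepatocytes, stood at 9.06% fasted and 13.1% control (12 cytosines). The leukocyte starts were those of Cd79a with 88.9% fasted and 97.4% control (4 cytosines) and of Lck with 79.8% and 73.3% (3 cytosines). Kdr, an endothelial gene, stood at 1.35% fasted and 1.53% control (30 cytosines), and the biliary gene Epcam at 12.5% and 12.7% (8 cytosines). No cytosine was covered at the starts of Alb and Apoa1, so these levels do not settle the makeup of the tissue.

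High methylation of these windows was also present in the fasted library, whose level the rule did not use. The median window level was 91.3% (45.5% to 99.6%) in the fasted library and 90.5% (80.1% to 99.2%) in the control library. Of the 577 windows, 562 (97.4%) were at 80% or more in the fasted library. The fasted library had 615 CpG-dense windows at 80% or more, of which the same 562 made up 91.4%. The windows nearest the threshold lay close together: just inside were windows at chr5:39720001-39721000 with 96.3% fasted and 80.1% control, chr2:55203001-55204000 with 84.5% and 80.2%, and chr9:7300001-7301000 with 77.7% and 80.3%. Just outside were a window in Zbtb45 with 81.1% fasted and 79.996% control (chr7:13007001-13008000), a window in Engase with 75.1% and 79.987% (chr11:118479001-118480000), and chr2:39645001-39646000 with 80.03% and 79.9%.

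The methylated windows lay at the lower end of CpG density. Of windows with 40 to 49 listed cytosines, 308 of 3039 (10.1%) were methylated in the control library. The share was 5.29% (123 of 2325) at 50 to 59, 3.02% (105 of 3481) at 60 to 79, 1.33% (28 of 2108) at 80 to 99, and 0.467% (13 of 2783) at 100 or more. Members had a median of 49 listed cytosines (40 to 195), against 69 in the other CpG-dense windows. A median of 34.1% of the listed cytosines reached 10 reads in both libraries in the methylated windows, against 70.2% in the others. The median depth per covered cytosine was 17.9 reads in the fasted library and 17.6 in the control library in the methylated windows, against 24.4 and 24.3 in the other CpG-dense windows. Coverage thus moved with the level, and its part in which windows entered was not tested.

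Cytosine levels varied within a window, and the control values given here follow in part from the rule. The median SD of cytosine levels within a window was 9.33 points in the fasted library and 9.81 in the control library. Of 11142 covered cytosines in the 577 windows, 70.5% were at 90% or more in the fasted library and 68.5% in the control library, and 39.4% and 38.2% read as fully methylated. Both strands were covered at 2604 CpGs, where the plus strand minus the minus strand averaged 0.147 points in the fasted library (SD 12.2) and -0.188 points in the control library (SD 12.1). The strands thus differed little on average, while single CpGs scattered between them.

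**Figure D1:**
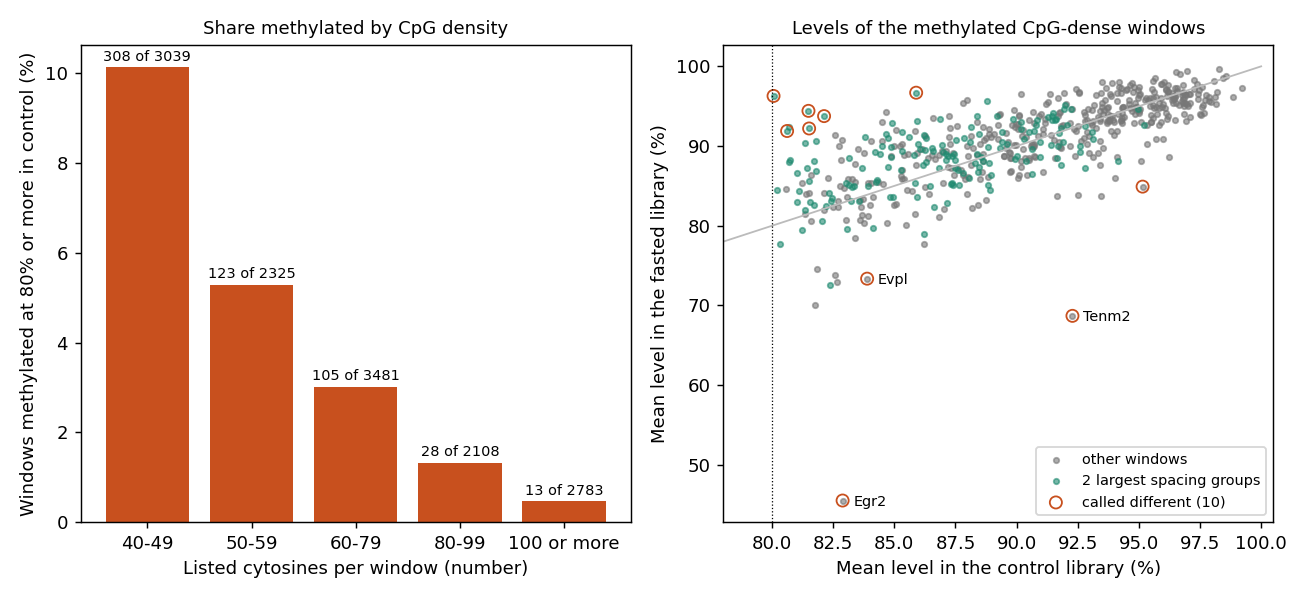
Left, percentage of CpG-dense windows methylated at 80% or more in the control library by the number of listed cytosines, with counts above the bars. Right, mean level in the fasted library against that in the control library for each of the 577 windows; the grey line marks equal levels, the dotted line the 80% used to choose the windows, green points the 2 largest groups of windows with shared CpG spacing, and rings the 10 windows called different (1.73%, where 2.0% of all windows tested were called). The share falls with density to 0.467%, and Egr2 stands lowest in the fasted library at 45.5%.

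Most of the methylated windows lay inside genes and few at gene starts. A gene start was taken as 250 bp before to 50 bp after the annotated start. Of 559 windows outside chromosome 18, whose gene starts were not analysed here, 15 (2.68%) overlapped a gene start, 23 (4.11%) the far end of a gene, 341 (61.0%) the body of a gene, and 180 (32.2%) lay outside genes. Among the other 12761 CpG-dense windows the shares were 57.1% at starts, 10.4% at far ends, 28.5% in bodies and 3.99% outside genes. With starts taken from 1000 bp before to 500 bp after, 20 methylated windows (3.58%) and 8767 other CpG-dense windows (68.7%) overlapped a start. Levels were a little higher in bodies, with medians of 93.1% fasted and 92.6% control, than outside genes, with 88.8% and 87.8%.

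Inside protein-coding genes the methylated windows leaned to the far part of the gene. The middles of 281 windows lay in 268 protein-coding genes with a known strand, in 287 pairings. The last 25% of the gene by length held 148 of 287 (51.6%), and the first 10% held 4.53%. Of the other CpG-dense windows, 5.17% lay in that last stretch and 71.0% in the first 10%. The median position was 75.9% of the way along the gene for the methylated windows and 2.61% for the others.

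Of 350 protein-coding genes that hold a methylated CpG-dense window, 176 had a measured CpG-dense start. Of these starts, 158 (89.8%) were under 10% in the fasted library and 158 in the control library, against 6477 (97.8%) and 6478 (97.9%) of 6620 measured CpG-dense starts of other protein-coding genes. In the control library 11 were at 80% or more and 7 lay between. Genes whose methylated window lies at the start itself are among these 176 by the rule. They lower the share under 10%, so the comparison with other genes was partly fixed by the rule. The median start level was 0.930% in the fasted library and 0.780% in the control library.

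**Figure D2:**
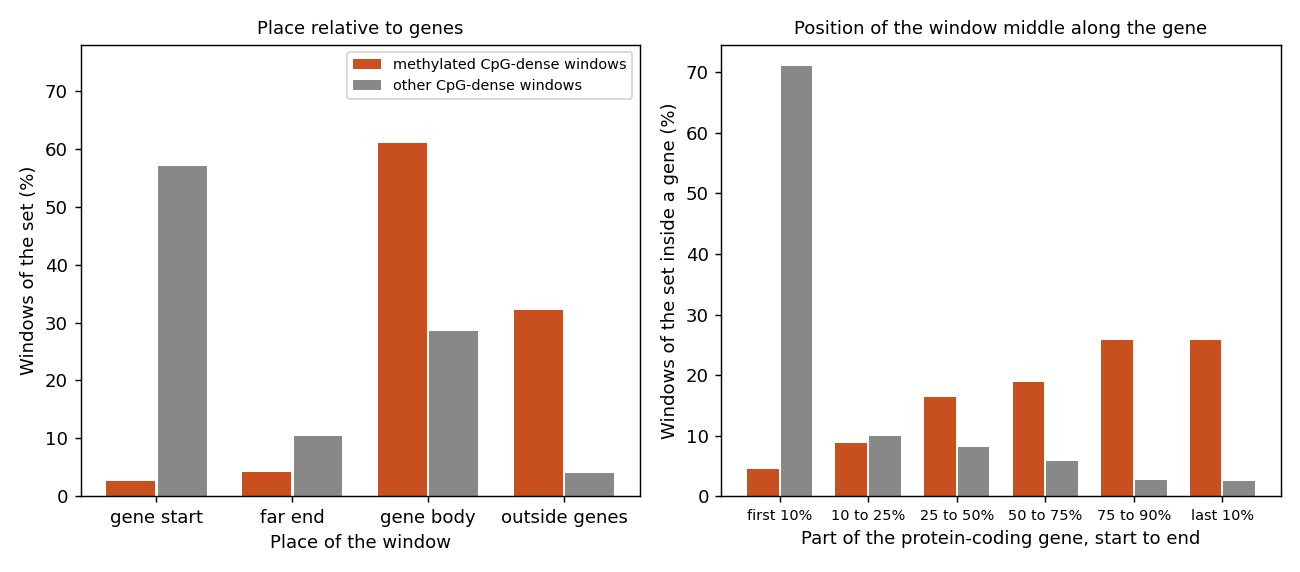
Left, percentage of windows by place, and right, by position of the window middle along protein-coding genes, for methylated CpG-dense windows (orange) and other CpG-dense windows (grey). The methylated windows peak in gene bodies (61.0%) and in the last part of genes, the others at starts (57.1%) and in the first 10% (71.0%).

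Among 6796 protein-coding genes with a measured CpG-dense start, 12 (0.177%) had a start region, 250 bp before to 50 bp after the start, that overlaps a methylated window. Sohlh2, a transcription factor of spermatogonia and oocytes, had the most covered cytosines: its window (chr3:55182001-55183000, 53 cytosines) stood at 92.1% in the fasted library and 90.1% in the control library. Summed over reads this was 840 of 918 in the fasted library (91.5%, exact 95% interval 89.5% to 93.2%) and 939 of 1038 in the control library (90.5%, 88.5% to 92.2%). The intervals overlap, and single cytosines ran from 64.3% to 100% in the fasted library and from 50% to 100% in the control library. All such intervals cover counting error only and are too narrow, since a read spans several cytosines and PCR copies were not told apart.

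Several of the other starts also belong to genes known from the testis. Naa11, a testis form of the catalytic subunit of an N-terminal acetyltransferase, shares its window with the start of the noncoding RNA 4930467D21Rik and stood at 95.2% fasted and 93.2% control (36 cytosines). Slc25a31, an ADP/ATP carrier of male germ cells, stood at 90.6% fasted and 93.4% control (28 cytosines). Dmrtb1, a DM-domain transcription factor of spermatogonia, stood at 84.1% fasted and 82.1% control (27 cytosines). In the Dmrtb1 window single cytosines had an SD of 15.2 points in the fasted library and 11.7 in the control library. Hormad1, a protein of the meiotic chromosome axis, stood at 86.4% fasted and 90.4% control (25 cytosines). Hsf5, a heat shock factor of the testis, stood at 95.7% fasted and 95.4% control on 14 covered cytosines.

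The starts of Tex14, needed for the bridges between germ cells, and of Rad51c, a recombination and repair protein, lie back to back, and their start regions overlap 1 window, at 91.2% fasted and 87.2% control (15 cytosines). Only 1 covered cytosine lay in the Tex14 start region itself, at 72.7% fasted and 63.6% control, and 3 in that of Rad51c, at a mean of 77.3% and 75.8%. The window's level thus comes mostly from DNA beyond these start regions, which were themselves under 80%. The other 4 are 4933428G20Rik at 92.9% fasted and 91.1% control (28 cytosines), Fignl2, a relative of the microtubule-severing protein fidgetin, at 86.3% and 81.6% (21 cytosines), 1700020D05Rik at 90.6% and 84.0% (15 cytosines), and Fancd2os at 81.3% and 83.7% (14 cytosines). The start region of 1700020D05Rik itself held no covered cytosine, so its value comes from the rest of the window.

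A list of 76 germline genes, of which 72 matched an autosomal gene, was read for comparison. Of 20 with a measured CpG-dense start, 4 (20%) had a start region that overlaps a methylated window, against 0.177% of all protein-coding genes, namely Hormad1, Slc25a31, Sohlh2 and Tex14, the last with its start region under 80%. A methylated CpG-dense window anywhere in the gene was found in 7 of 24 (29.2%), against 3.54% of all protein-coding genes measured. The further 3 were Asz1 and Gtsf1, both of the germline defence against transposons, and D1Pas1, a testis RNA helicase. The windows of these 3 lay in gene bodies. Those of Asz1 and Gtsf1 belong to the groups of windows with shared CpG spacing described below. Just below the threshold came the starts of Ddx4, the germ cell helicase vasa, with 68.6% fasted and 79.3% control, of Mael, a piRNA pathway protein, with 77.1% and 79.3%, and of Sycp2, of the synaptonemal complex, with 72.8% and 77.1%. Dazl, a germ cell RNA-binding protein, stood at 59.3% fasted and 60.9% control. Other listed starts were almost unmethylated, among them Tdrd7 at 0.295% fasted and 0.132% control and Stag3, a meiotic cohesin subunit, at 1.52% and 1.68%. The germline starts thus spread over the whole scale rather than sharing a level.

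**Figure D3:**
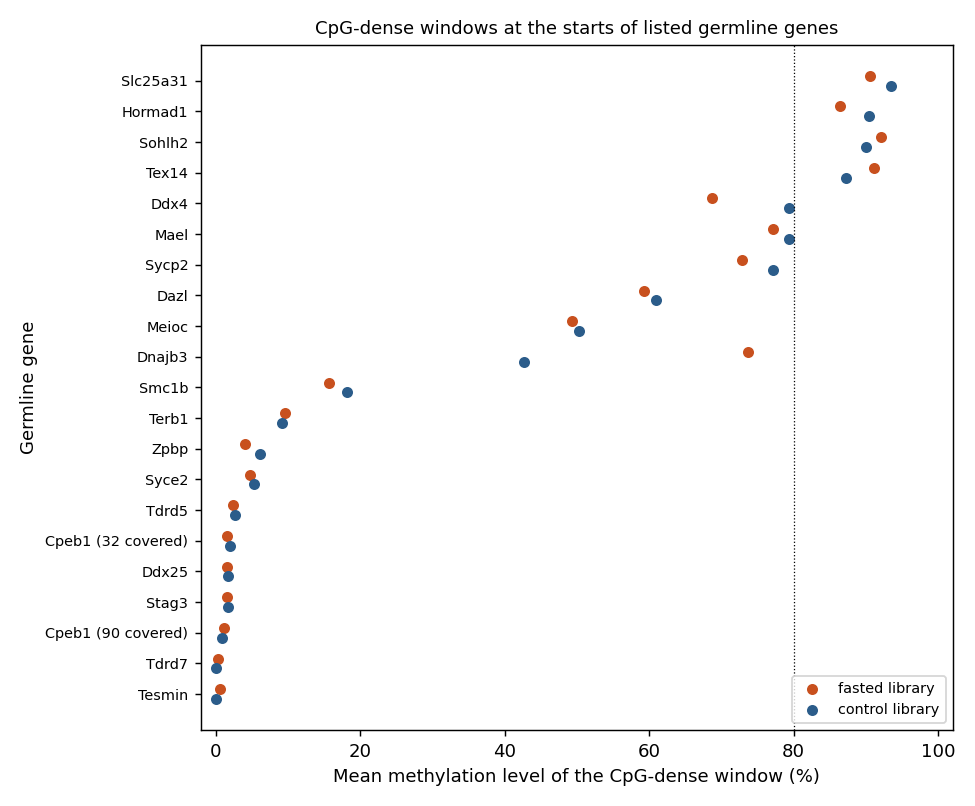
Mean methylation level of CpG-dense windows at the starts of 20 listed germline genes, fasted library (orange, upper point) and control library (blue, lower point); the dotted line marks 80%. Sohlh2, Slc25a31, Hormad1 and Tex14 lie above the line and Tesmin and Tdrd7 near 0.

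The 12 starts at methylated windows were not the richest in CpG. Over 250 bp before to 50 bp after the start they held a median of 21 CpGs (8 in Fancd2os and Fignl2 to 42 in 4933428G20Rik), against 26 for 7806 protein-coding starts in other CpG-dense windows and 14 for all 20085 protein-coding starts in the table. Median GC content was 63.2% against 65.7% in the other CpG-dense starts. The motif CACGTG, an E-box read on both strands, was found in 3 of 12 (25%), against 10.7% of starts in other CpG-dense windows and 7.89% of all protein-coding starts. Hormad1 holds 2 copies, and Slc25a31 and 4933428G20Rik hold 1 each. The motif TCCCGC, read on both strands as TCCCGC or GCGGGA, was found in 6 of 12 (50%), against 44.9% and 26.3%. By their letters the motifs can share at most 1 base, and a match describes the sequence, not a bound site.

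Zinc finger genes held 29 of the methylated windows. C2H2 zinc finger proteins bind DNA through rows of repeated fingers that are mostly encoded in the last exon. Of 174 genes named Zfp, Zscan or Zkscan with a measured CpG-dense window, 27 (15.5%) held a methylated one, against 350 of 9888 (3.54%) over all protein-coding genes. None of the 118 measured CpG-dense starts of such genes was methylated, where 0.177% were over all protein-coding genes. A CpG-dense start was measured in 14 of the 27 genes, at a median of 0.712% fasted and 0.651% control and at most 4.19% and 2.74%. The methylated windows of these genes stood at a median of 93.8% in the fasted library (82.0% to 99.3%) and 93.7% in the control library (80.7% to 97.7%). The middles of 23 of them could be placed on a strand, and 10 lay in the last 25% of the gene. Over all methylated windows in protein-coding genes this stretch held 148 of 287 (51.6%). The median position was 64.8% along the gene in the zinc finger genes and 75.9% over all. The zinc finger windows thus did not lean further to the gene end than the rest, and exons were not analysed here.

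Zfp619 had the highest fasted level of them, with 99.3% fasted and 96.5% control (22 cytosines), and Zfp442 the lowest, with 82.0% and 82.1% (16 cytosines). Zfp787 carried 79 listed cytosines in its window and stood at 93.8% in both libraries (42 cytosines). Its starts lay at 0.657% and 0.221% in the fasted library and at 0.825% and 0.659% in the control library. The differences of the 29 windows, fasted minus control, ran from -5.81 points in Zfp365 to 7.30 in Zfp385b. The windows of Zfp385b and Zfp804b belong to the largest group of windows with shared CpG spacing described below.

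Other gene families were read against the same 3.54% of all protein-coding genes with a methylated window and 0.177% with a methylated start. Of imprinted genes, which are expressed from 1 parental copy, none of 13 measured CpG-dense starts and 1 of 25 genes with a CpG-dense window (4.0%) was methylated at 80% or more. That gene was Peg10, derived from a retrotransposon, whose window at chr6:4755001-4756000 stood at 86.0% fasted and 94.0% control (10 cytosines). A start methylated on only 1 parental copy falls short of 80% by the rule. The counts for imprinted genes therefore do not show whether their starts carry such methylation. No methylated window fell in any of 28 measured genes of fasting and metabolism, nor in 34 clustered protocadherins, 33 Hox genes or 14 collagen genes. Of 76 measured ion channel genes, 4 (5.26%) held such a window: the calcium channel Cacna1i and the potassium channels Kcnc2, Kcnh1 and Kcnq3. The windows of Kcnc2 and Kcnq3 belong to the largest group of windows with shared CpG spacing described below. Kcnh1 was the highest of the 4, with 95.9% fasted and 96.8% control (28 cytosines). Of 38 measured starts of channel genes, 0 were methylated. Counts this small do not set these families apart from the share over all genes.

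The windows with the most listed cytosines were also highly methylated in both libraries. The densest, with 195 listed cytosines, lies in Zfpm1, a cofactor of GATA transcription factors, and stood at 89.1% fasted and 93.3% control (56 cytosines, chr8:122336001-122337000). The window at the start of 4933428G20Rik, which also lies in Arhgap23, came next with 133. A pair of adjacent windows in Zfp865 held 120 and 127 and stood at 92.9% and 93.8% in the fasted library and at 94.8% and 93.9% in the control library. A window that overlaps Grin3b, an NMDA receptor subunit, and Tmem259 held 127 and stood at 91.4% fasted and 94.0% control (26 cytosines). The window in Sh2b3, an adaptor that restrains cytokine signalling, held 115 and stood at 85.4% fasted and 87.0% control (33 cytosines). The window in LOC115489542 held 116 and stood at 89.4% fasted and 86.6% control. That in Cbarp, a regulator of calcium channels, held 105 and stood at 83.4% fasted and 83.7% control.

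Few of the methylated windows adjoined another window that met the rule. Of them, 537 had no neighbour that met the rule, and 20 pairs were adjacent, with no longer run. Most neighbours could not be read: 168 windows 1 step before and 154 windows 1 step after held 3 or more covered cytosines. Of these, 132 before and 132 after were at 80% or more in the control library. The count thus depends on density and coverage and does not show isolated methylation. The pairs with the most covered cytosines lay in Zfp865 (132), in Zscan2 (90), in Mn1, a transcriptional coregulator (67), and in Dsp, the desmosome protein desmoplakin (45). The Dsp pair stood at 96.6% fasted and 95.4% control, and the Mn1 pair at 83.6% and 86.8%.

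The surroundings were methylated too, more so outside genes. Windows 1 step before a methylated window averaged 83.5% in the fasted library and 83.7% in the control library (168 measured), and those 1 step after 86.5% and 86.4% (154 measured), where a neighbour needed 3 covered cytosines. Around windows inside genes the mean level 5 steps away was 53.5% fasted and 53.0% control before, and 54.3% and 54.5% after. Around windows in no gene it was 83.4% fasted and 80.7% control before, on 13 windows, and 86.6% and 86.2% after, on 12. Around the other CpG-dense windows the neighbours 1 step before averaged 10.5% fasted and 10.7% control. An unmethylated CpG-dense window, under 10% in the control library, lay within 5 steps of 52 methylated ones (9.01%) and right beside 5.

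**Figure D4:**
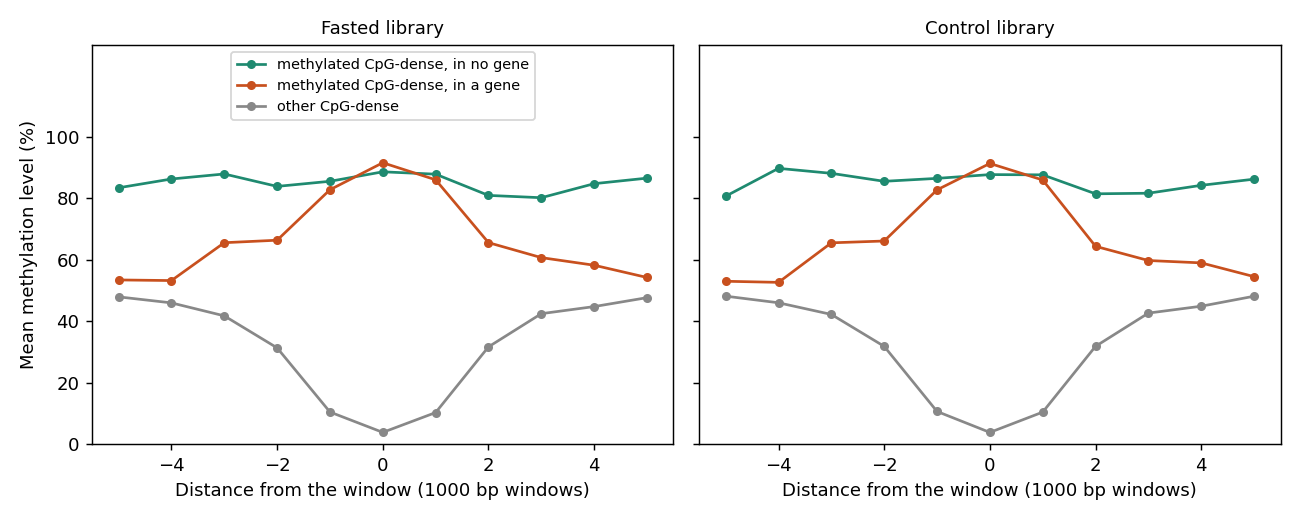
Mean methylation level by distance in windows of 1000 bp from methylated CpG-dense windows in no gene (green), in a gene (orange) and from other CpG-dense windows (grey), fasted library left and control library right. Levels stay above 80% around windows in no gene, drop to about the middle of the scale around those in genes, and climb away from the other CpG-dense windows.

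The windows outside genes often shared an arrangement of CpGs, found after the levels had been seen. Distances between successive listed CpGs were read in runs of 6. The commonest run in the methylated windows was 37, 3, 7, 13, 4 and 21 bp, which spans 7 CpGs in 85 bp. It occurred in 77 of the 577 methylated windows and in 5 of the 13159 other CpG-dense windows. Since it was picked by its number in the methylated windows, these counts do not compare the sets. On all autosomes it had 1640 copies, 790 in this order and 850 in the reverse, the most of 1219107 distinct runs, whose median number of copies was 1. The sequence of this commonest run was not analysed here.

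A shared run was in itself no rarity. Of the 577 windows, 199 (34.5%) shared a run of 6 distances with another of them. Among the other CpG-dense windows, 7659 (58.2%) shared one with another of theirs. That set is larger and gives each window more partners to match, so these shares do not compare the sets. Runs shared by 5 or more windows of the same set occurred in 154 of the 577 (26.69%). In the other CpG-dense windows such runs occurred in 2102 (15.97%). Linking windows that share a run of 6 distances joined 133 of the 577 (23.1%) into a group, of which 98 (73.7%) lay in no gene. A second group held 25 windows, 18 of them in no gene. Of the other 419 windows, 72 (17.2%) lay in no gene. The linked windows had a median of 57 listed and 13 covered cytosines, against 47 and 19 in the other 419. Their median level was 88.6% fasted and 86.8% control, against 92.9% and 92.5%. Where copies are near-identical in sequence, the placement of a read among them is uncertain, and how alike these copies are in sequence was not tested.

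Most measured copies of the arrangement were at 80% or more, also outside the chosen windows. At 569 copies with at least 3 covered cytosines the median level was 89.2% fasted (50% to 100%) and 87.5% control (65.2% to 100%), and 514 copies were at 80% or more in the fasted library and 505 in the control library. Outside the methylated CpG-dense windows, 485 copies stood at 89.3% fasted and 87.5% control, and 431 of them were at 80% or more in the control library. The 7 CpGs differed in level. The second averaged 95.8% fasted (SD 5.38, 160 cytosines) and 96.1% control (SD 5.47). The sixth averaged 80.2% fasted (SD 13.05, 516 cytosines) and 77.6% control (SD 13.05). Both strands were counted, and the number of covered cytosines differed by position, so these means do not compare positions within the same copies. That order was alike in both libraries.

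The fasted and control levels of the methylated windows differed little. The mean difference, fasted minus control, was 0.448 points (counting interval 0.229 to 0.666), with 316 windows higher and 261 lower in the fasted library and 500 of 577 within 5 points. Over the other CpG-dense windows it was 0.00713 points, and over 5311 methylated windows with fewer than 40 listed cytosines -0.295 points (-0.378 to -0.211). The mean differed between the 2 largest groups of shared spacing, which were formed after the levels were seen, and the other windows. Some of those other windows share spacing too, so shared and unshared spacing are not compared. The groups had control medians of 86.8% and 88.4%, against 92.5% in the other windows. Grouping and nearness to the 80% rule thus cannot be told apart. The 133 linked windows averaged 1.56 points (1.01 to 2.10), the second group 2.41 (1.28 to 3.55), and the other 419 windows -0.0219 (-0.258 to 0.214). Copies of the arrangement outside the chosen windows averaged 1.20 points (0.636 to 1.77), with 271 higher and 210 lower. The mean over the chosen windows turned to -0.375 points at 90% or more and to -0.232 with a minimum of 20 reads. It was 1.66 points for windows chosen by the fasted library and 1.07 by the mean of both libraries. Since the control level chose the windows, a control level that was high or low by chance enters this difference, and it is given as a description only.

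By the call used here, 10 of the 577 windows (1.73%) differed between the libraries, 6 higher and 4 lower in the fasted library. A call needed 10 points between mean levels and a p under 0.05 in Fisher's exact test (two-sided) on the window's reads, adjusted by Benjamini-Hochberg over all windows of 3 or more covered cytosines. Over 124884 windows tested, 2.0% were called, 1.06% higher and 0.942% lower. The count is printed beside this background and nothing is read from it, since the control level, on which the difference rests, chose the windows. The split by direction depends on the rule as well: chosen by the mean level of both libraries, 22 windows were called, of which 20 were higher in the fasted library. Of single cytosines in the 577 windows, 15 of 11142 (0.135%) were called at 25 points, 12 higher and 3 lower, where 0.0820% of 1603296 were called in all.

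The largest decrease was inside Egr2, a zinc finger transcription factor of hindbrain and myelin development that is also induced by growth signals. Its window (chr10:67540001-67541000), 78.1% of the way along the gene, stood at 45.5% in the fasted library and 82.9% in the control library. The reads were 205 methylated of 439 in the fasted library and 333 of 397 in the control library, and all 23 covered cytosines were lower in the fasted library. Single cytosines ran from 14.3% to 83.3% (median 47.8%) in the fasted library and from 50% to 100% (median 86.4%) in the control library, so the ranges overlap while each position moved the same way. Cytosines close together lie on shared reads, here and in the windows below, so the 23 are not separate observations. The 5 windows on the side of the gene start stood at 0.980% to 5.77% in the fasted library and at 0.397% to 5.04% in the control library. The methylated window of Egr2 thus borders an unmethylated stretch.

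The next largest decrease was in Tenm2, a teneurin, which is a cell adhesion protein of neurons. Its window (chr11:36047001-36048000, 96.7% along the gene) stood at 68.7% fasted and 92.3% control, and 28 of 29 cytosines were lower in the fasted library. The window before it, with 8 cytosines, was also called and stood at 62.9% fasted and 77.9% control. In Evpl, envoplakin of the cornified cell envelope, the window at chr11:116223001-116224000 stood at 73.4% fasted and 83.9% control, with 15 of 19 cytosines lower. Its neighbour with 64 covered cytosines was called too, at 31.3% fasted and 44.3% control. The fourth window, chr6:112535001-112536000, lies outside genes and stood at 84.9% fasted and 95.2% control.

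All 6 windows called higher lie outside genes. They fell in the groups of shared CpG spacing, 4 of 133 windows in the largest and 2 of 25 in the second. Over all windows tested, 1.06% were called higher. The groups were formed after the levels were seen, and the 6 stood at 80.1% to 85.9% in the control library, whose level chose them. Nothing is read from this placing. The largest increase was at chr5:39720001-39721000, with 96.3% in the fasted library (116 of 120 reads) and 80.1% in the control library (103 of 130 reads). It was followed by chr7:14957001-14958000 with 94.4% fasted and 81.5% control, chr1:56714001-56715000 with 93.8% and 82.1%, chr7:58038001-58039000 with 91.9% and 80.6%, and chr10:65663001-65664000 with 96.7% and 85.9%. The sixth, chr8:67036001-67037000, stood at 92.2% fasted and 81.5% control. Each rests on 10 to 17 covered cytosines. None of these 10 calls held when the reads of a window were divided by its number of cytosines, and only those of Egr2 and Tenm2 held when every read number was halved.

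**Figure D5:**
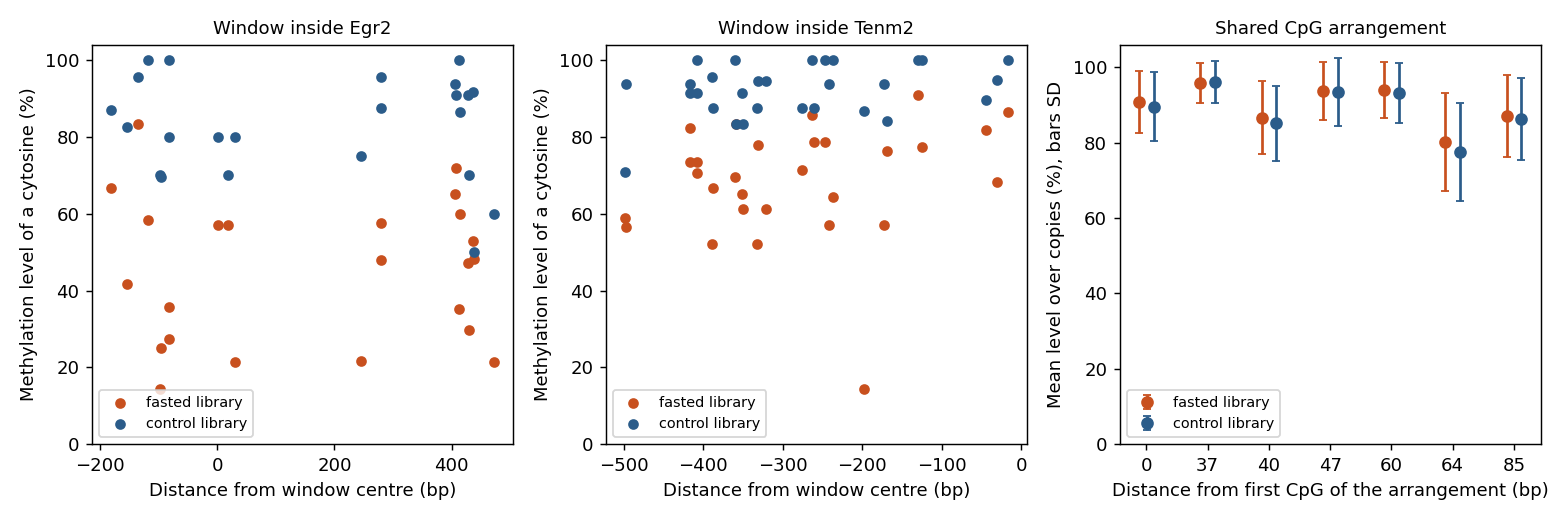
Left and middle, methylation level of each covered cytosine by distance from the window centre in the windows of Egr2 and Tenm2, fasted library orange and control library blue. Right, mean level of the 7 CpGs of the shared arrangement over 160 to 532 covered cytosines per CpG with SD bars, fasted left of control. All 23 Egr2 cytosines are lower in the fasted library, and the sixth CpG of the arrangement is the lowest in both libraries.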

How the data were processed

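Liver DNA of 1 fasted and 1 control library was cut with MspI and TaqαI, size-selected, bisulfite-treated and sequenced, per the labels' protocols. Tools named in the submitters' processing notes are bcl2fastq (1.8.4) and Bismark (0.14.3), with mm10 as the build. How reads were aligned and whether duplicates were removed is not stated there. For each CpG cytosine and strand the deposited files give methylated and total reads and a score, which the authors deposited as 1000 times the methylated fraction, rounded. It differed from the reads by at most 0.5, and the reads were used.

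Levels, windows and gene places were computed with Python 3.11.15 (numpy 2.4.6, pandas 2.3.3, scipy 1.17.1) from cytosines with 10 or more reads in both libraries. Gene positions and sequences came from RefSeq on GRCm38.p6; gene starts on chromosome 18 were not analysed here. Fisher's exact test on reads, with Benjamini-Hochberg adjustment over all windows or cytosines, compares 2 libraries and not the conditions. It was tested on simulated data with known changes. Intervals of mean differences treat reads as independent and cover counting error only. Named windows followed a rule: the densest, the largest called changes, those at protein-coding or listed gene starts, the longest runs and those next to the threshold. The members and lists were chosen with earlier results of these data known. The linking by CpG spacing was chosen after the levels were seen. Alternatives were other coverage minimums, levels, densities, a moved grid, summed reads, merged strands, equal depth, a coverage cap, other call sizes and fewer reads.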

Additional observations from a re-analysis of the deposited data

How the results depend on the processing

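The number of methylated CpG-dense windows was 1095 with a minimum of 5 reads (7.51% of CpG-dense windows) and 53 with 20 reads (0.498%). It was 309 at a level of 90%, 146 with 60 listed cytosines (1.74%) and 219 with 20 covered cytosines. It stayed within 1.5 times of 577 at 70%, on a moved grid, from summed reads, from the fasted library or both libraries, and with the most covered cytosines left out. With 5 reads, 53.2% lay in gene bodies and 41.6% outside genes; with 20 reads, 46.2% lay in each. The other shares by place stayed within their intervals.

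The mean difference turned to -0.232 points with 20 reads and -0.375 at 90%. It turned to -0.0219 without the 2 largest groups of shared spacing, an alternative chosen after seeing the data. It was 1.66 for windows chosen by the fasted library and 1.07 by both libraries. The number of windows called was 1 with 20 reads, 22 chosen by both libraries, 5 at equal depth, 24 at 5 points, 2 at 20 points, 0 after dividing a window's reads by its cytosine number, 2 with reads halved and 4 without the spacing groups. Called cytosines numbered 3 with 20 reads and 0 with reads halved. The window on chromosome 1 starting at 56714001 turned to -0.202 points with 20 reads. Egr2 stayed between -29.7 and -37.5 points and Tenm2 between -17.2 and -26.3 under the alternatives run. Causes of these changes were not tested.

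No paired analysis was possible because there is 1 library per group, so none was left out. The values describe 2 libraries, at a median of 17.9 fasted and 17.6 control reads per covered cytosine in these windows.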

Other observations

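Some single cytosines inside the methylated windows were well below their window in both libraries. Of 11142 covered cytosines, 92 in 78 windows were under 50% in the fasted and in the control library. The cytosine on the other strand of the same CpG was covered for 27 of them, and it was under 50% in both libraries at 10 and at 80% or more in both libraries at another 10.

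The start of Dnajb3, a testis heat shock protein, missed the rule by its control level and stood at 73.6% in the fasted library and 42.7% in the control library (25 covered cytosines). It was singled out after its values were seen.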
